A study of Mus musculus with 8 samples.

Results

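*Avp*, *Oxt*, *Avpr1a*, *Oxtr* and *Cd38*, the genes of vasopressin, oxytocin, a receptor of each and an enzyme of oxytocin release, were followed in the hypothalamus (HT) of 8 mice. The 5 genes were chosen by name, with earlier results of these data known, from 17316 named genes that were tested. Each had 1 probe, out of 55681 probes other than controls, of which 37322 were tested. The mice were male C3H/HeN, an inbred strain. The MS group held 4 mice that as pups, from PND 2 to 14, underwent daily maternal separation while the dam was stressed in unpredictable ways, and the control group held 4 mice that were left undisturbed. All of them were adult, had worked for food in operant cages and had been fasted before the HT was dissected. MS mice are named 5.3, 7.1, 7.2 and 7.6 and control mice 6.2, 8.2, 8.4 and 8.5 after their labels, which do not say who shared a litter or a cage. The tests therefore measure the spread between these mice.

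Vasopressin and oxytocin are short peptide hormones that differ in a few amino acids. Large neurons of the paraventricular and supraoptic nuclei make them from longer precursors and send them down their axons to the posterior pituitary, from where vasopressin acts on water retention and blood pressure and oxytocin on milk ejection and labor. Smaller neurons release both peptides within the brain, where they act on social behavior, stress responses and food intake, and vasopressin is also made in the suprachiasmatic nucleus, the circadian pacemaker. V1a receptors (*Avpr1a*) and oxytocin receptors (*Oxtr*) signal through Gq proteins and intracellular calcium. CD38 makes the calcium-releasing messenger cyclic ADP-ribose and, in mice, is needed for normal oxytocin release.

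No difference between MS and control mice passed the test for any of the 5 genes. The count of genes called was 0 of 5 at an adjusted p under 0.05 (limma, two-sided, Benjamini-Hochberg over all probes tested), where 0% of all 37322 probes were called, and 0 of 5 at an unadjusted p under 0.05, where 3.3% of all probes fell. The MS and control values overlapped for each of the 5 genes, while 2.03% of all probes had groups that did not overlap. The intervals still left room for changes of some size, which ranged from narrow for *Oxtr* to wide for *Avpr1a*. Across the 8 mice, the values of *Avp* and *Oxt* correlated with each other, as did those of *Oxtr* and *Cd38*, but 0 of the 10 pairs of genes passed the test after adjustment.

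Signals are intensities of the dye Cy3, on a log2 scale relative to the 75th percentile of the array, so that 0 is the signal of a spot at that percentile. A log2 difference of 1 is a doubling. The 75th percentile itself was 567 to 1018 intensity units in MS mice (median 914) and 853 to 967 in control mice (median 898), and MS 7.6 had the dimmest array. The probes of the 5 genes were well above background on all 8 arrays and 0 of their spots were saturated. All 13 listed marker genes of the HT were tested, and their mean level was 1.52 to 1.87 in MS mice and 1.82 to 1.94 in control mice. The 8 arrays lay on 1 slide in 2 rows, each with 2 MS and 2 control mice. With 4 arrays a group the precision is limited, and in whole HT tissue fewer neurons of a kind cannot be told apart from less RNA in each.

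*Avp* encodes vasopressin with its carrier protein neurophysin. Its probe lies at chr2:130406552-130406817 on the minus strand (build mm9). The 60 bases of the probe cover 266 bases of genome, so that it crosses an exon junction. It is shown because it reads through the coding sequence of the neurophysin part:
Avp probe: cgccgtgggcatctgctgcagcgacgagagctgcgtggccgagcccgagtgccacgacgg

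The *Avp* signal was 6.46, 6.91, 6.48 and 6.17 in MS mice 5.3, 7.1, 7.2 and 7.6, against 6.70, 6.36, 6.58 and 6.45 in control mice 6.2, 8.2, 8.4 and 8.5. The highest and the lowest mouse were both MS mice, and all 4 control mice lay between them. *Avp* averaged 6.50 ± 0.30 in MS mice and 6.52 ± 0.15 in control mice (SD, n = 4 each), a log2 fold change of -0.02 (SE 0.15), or 0.987-fold with a 95% confidence interval of 0.775 to 1.26. The adjusted p was 0.995 (limma), and an exact permutation test over the 70 ways to choose 4 of 8 mice gave p = 1 (two-sided, smallest possible 0.029). The difference was 0.0017 within row 1 of the slide and -0.04 within row 2.

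*Oxt*, the gene of oxytocin with its own neurophysin, had a probe at chr2:130402665-130402724 on the plus strand. Its signal was 6.74, 7.11, 6.32 and 6.12 in MS mice 5.3, 7.1, 7.2 and 7.6, against 6.53, 6.29, 6.68 and 6.21 in control mice 6.2, 8.2, 8.4 and 8.5. As for *Avp*, MS 7.1 was the highest and MS 7.6 the lowest of the 8 mice, and the control values lay within the MS range. *Oxt* averaged 6.57 ± 0.44 in MS mice and 6.43 ± 0.22 in control mice (SD, n = 4 each), a log2 fold change of 0.14 (SE 0.22). This was 1.11-fold, with a 95% confidence interval of 0.784 to 1.56 (adjusted p = 0.981, limma; exact permutation p = 0.543). Within row 1 the difference was 0.05, within row 2 it was 0.24, and without MS 7.1 it was -0.03.

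Within a mouse, the *Oxt* value minus the *Avp* value, a measure chosen after the values were seen, was 0.28, 0.20, -0.16 and -0.05 in MS mice 5.3, 7.1, 7.2 and 7.6. In control mice 6.2, 8.2, 8.4 and 8.5 it was -0.17, -0.07, 0.09 and -0.24. The groups overlapped, since MS 7.2 lay below 2 of the control mice. The mean was 0.07 ± 0.21 in MS mice and -0.10 ± 0.15 in control mice (SD, n = 4 each), and the difference of 0.16 had an exact permutation p of 0.2.

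*Avpr1a*, the V1a receptor gene, showed the widest spread. Its probe lies at chr10:121890135-121890194 on the plus strand. The signal was -1.77, -2.09, -1.64 and -1.65 in MS mice 5.3, 7.1, 7.2 and 7.6, against -0.12, -1.51, -1.71 and -2.08 in control mice 6.2, 8.2, 8.4 and 8.5. Control 6.2 stood above the other 7 mice of both groups, which shared one range. Its SD within groups was larger than that of 96.9% of the probes tested.

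*Avpr1a* averaged -1.79 ± 0.21 in MS mice and -1.35 ± 0.86 in control mice (SD, n = 4 each). The log2 fold change was -0.43 (SE 0.38), or 0.741-fold with a 95% confidence interval of 0.405 to 1.36 (adjusted p = 0.981, limma; exact permutation p = 0.429). Without control 6.2 it was -0.02 (SE 0.16). By row of the slide, it was -0.10 in row 1 and -0.77 in row 2, where control 6.2 lay.

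Control 6.2 also had the highest level of pituitary genes. The mean over 7 of 8 listed pituitary markers was -0.10, -0.64, -0.77 and -0.27 in MS mice 5.3, 7.1, 7.2 and 7.6, against 2.31, -0.39, -0.78 and 0.27 in control mice 6.2, 8.2, 8.4 and 8.5. The marker left out of this mean, *Pou1f1*, a transcription factor of anterior pituitary cells, was well above background on the array of control 6.2 and on no other. *Avpr1b*, the vasopressin receptor of pituitary corticotrophs, was well above background on the arrays of control 6.2 and control 8.5 only, the pair of mice with the highest pituitary marker means, and was therefore not tested. All 7 markers averaged lower in MS than in control mice (median -0.59 on the log2 scale), and 0 of them passed the test. For *Gh* and *Prl* this rested on control 6.2, and for *Fshb* almost wholly so. *Gh* was 6.92 in control 6.2, 0.78 to 2.33 in the other control mice and 1.96 to 3.35 in MS mice. *Prl* was 6.51, 1.26 to 2.24 and 2.16 to 3.86, and *Fshb* was 0.41, -2.99 to -1.26 and -2.46 to -1.22. *Tshb*, with the smallest p, was 2.97 in control 6.2, -1.24 to 1.87 in the other control mice and -2.17 to -0.26 in MS mice. Over all 8 mice, *Avpr1a* and the marker mean had a Pearson's r of 0.84 (rho 0.14, exact permutation p = 0.0994, adjusted p = 0.745 over 30 such relations), and without control 6.2 r was -0.35. The relation thus rested on that mouse, and the part of pituitary tissue in its *Avpr1a* signal was not tested.

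**Figure D1:**
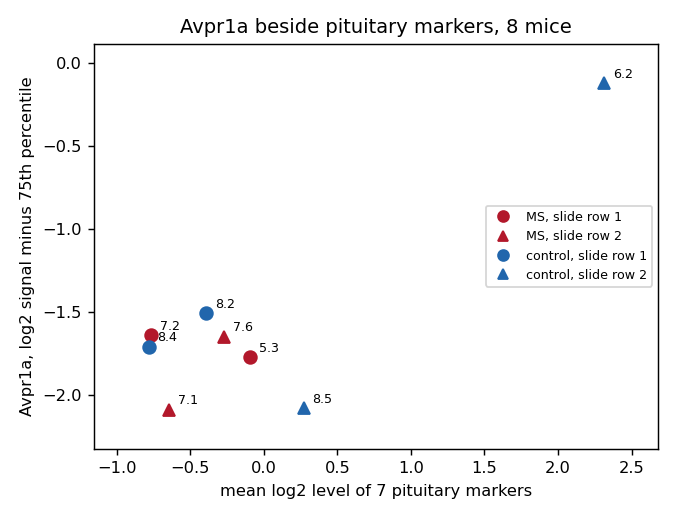
Each point is 1 mouse, numbered as in its label, with the mean log2 level of 7 pituitary markers on the x axis and the log2 signal of *Avpr1a* minus the 75th percentile of the array on the y axis (red, MS; blue, control; the shape gives the row of the slide). Control 6.2 sits alone at 2.31 and -0.12, and the other 7 mice lie between -0.78 and 0.27 on the x axis and between -2.09 and -1.51 on the y axis.

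*Oxtr*, the oxytocin receptor gene, had the narrowest spread of the 5, with an SD larger than that of 29.5% of probes. Its probe lies at chr6:112423686-112423745 on the minus strand. The signal was -0.09, -0.37, -0.17 and -0.13 in MS mice 5.3, 7.1, 7.2 and 7.6, against -0.30, -0.24, -0.35 and -0.21 in control mice 6.2, 8.2, 8.4 and 8.5. The 3 highest mice were MS mice, and the fourth MS mouse, 7.1, was the lowest of all. *Oxtr* averaged -0.19 ± 0.13 in MS mice and -0.27 ± 0.06 in control mice (SD, n = 4 each). The log2 fold change was 0.08 (SE 0.08), or 1.06-fold with a 95% confidence interval of 0.94 to 1.20 (adjusted p = 0.981, limma; exact permutation p = 0.286). Within row 1 the difference was 0.17, and within row 2 it was 0.003.

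*Cd38* had its probe at chr5:44302865-44302924 on the plus strand. The signal was -0.04, -0.40, -0.24 and 0.19 in MS mice 5.3, 7.1, 7.2 and 7.6, against -0.18, -0.24, -0.58 and 0.08 in control mice 6.2, 8.2, 8.4 and 8.5. MS 7.6 was the highest and control 8.4 the lowest, and the groups overlapped over most of this range. *Cd38* averaged -0.12 ± 0.26 in MS mice and -0.23 ± 0.27 in control mice (SD, n = 4 each), a log2 fold change of 0.11 (SE 0.17). This was 1.08-fold, with a 95% confidence interval of 0.827 to 1.41 (adjusted p = 0.981, limma; exact permutation p = 0.6). Within row 1 the difference was 0.27, and within row 2 it was -0.06.

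**Figure D2:**
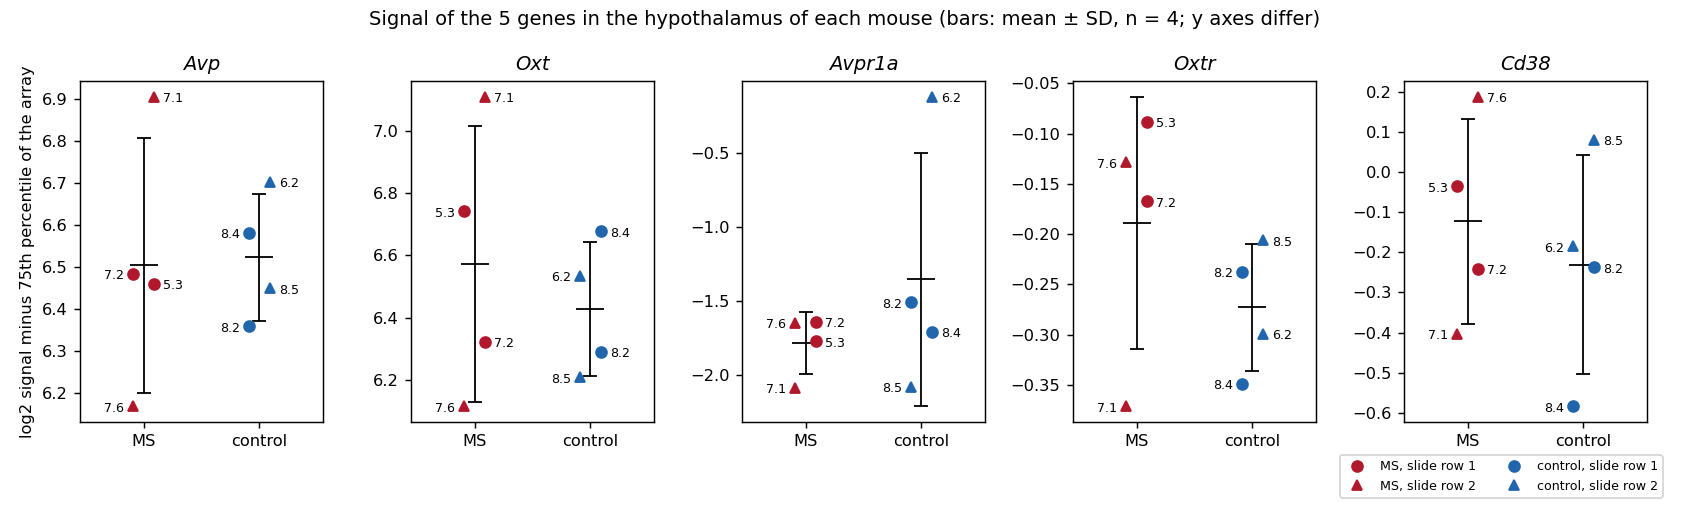
Each panel plots 1 gene, with the MS mice on the left in red and the control mice on the right in blue, numbered as in their labels, and the y axis gives the log2 signal minus the 75th percentile of the array on a scale of its own. Bars are mean ± SD of 4 mice, and the shape of a point gives the row of the slide. The groups overlap in all 5 panels, and control 6.2 stands at -0.12 for *Avpr1a*, above the other 7 mice.

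**Figure D3:**
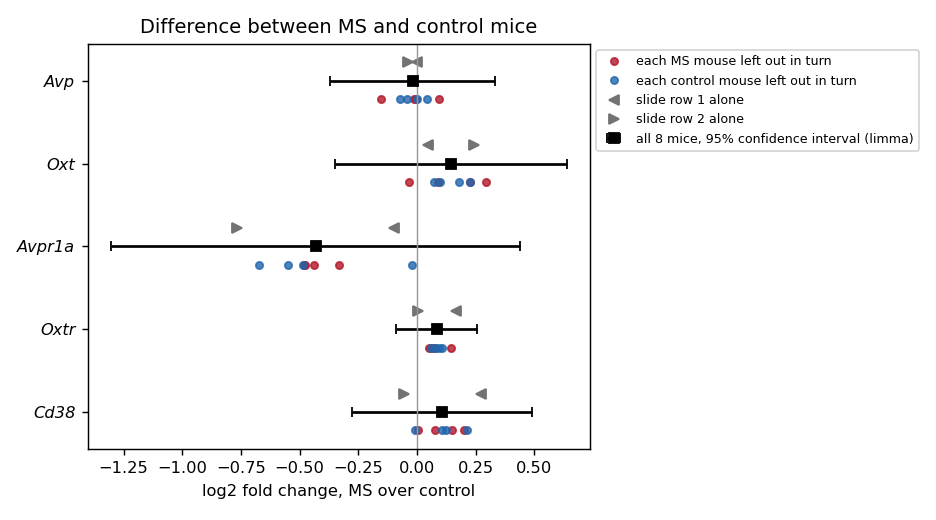
The log2 fold change of MS over control mice is on the x axis for each of the 5 genes, with black squares and lines for all 8 mice and their 95% confidence interval. Dots below each line show the value with 1 mouse left out, and triangles above it the value within each row of the slide. All 5 intervals include 0, and for *Avpr1a* 1 dot, without control 6.2, lies at -0.02.

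The second question was how the genes varied together across mice. *Oxt* and *Avp* are neighbors on chromosome 2, on opposite strands, with 0 genes listed between them in the RefSeq table, and the probes are 3827 bases apart in mm9. The 250 bases before each transcription start, from the RefSeq promoter table (build GRCm38.p6), are shown because the signals of this pair went together. Capitals mark CACGTG, an E-box of the kind bound by clock proteins, and TGACC or its reverse complement GGTCA, a half-site of nuclear hormone receptors; both strands were searched and the motifs do not overlap here.
Avp, chr2:130582589-130582838, minus strand: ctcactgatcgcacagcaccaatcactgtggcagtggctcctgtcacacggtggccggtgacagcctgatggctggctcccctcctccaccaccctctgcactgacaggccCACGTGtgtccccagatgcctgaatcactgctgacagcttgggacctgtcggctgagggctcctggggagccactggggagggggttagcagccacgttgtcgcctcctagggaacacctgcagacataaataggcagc
Oxt, chr2:130575919-130576168, plus strand: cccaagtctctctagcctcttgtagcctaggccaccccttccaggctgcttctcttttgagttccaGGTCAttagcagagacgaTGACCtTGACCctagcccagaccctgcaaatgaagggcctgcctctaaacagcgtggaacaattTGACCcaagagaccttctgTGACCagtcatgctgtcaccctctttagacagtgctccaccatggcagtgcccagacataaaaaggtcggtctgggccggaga

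The *Avp* sequence held 1 CACGTG, with its first base at -139 from the start, and no TGACC. The *Oxt* sequence held 5 TGACC half-sites, at -184, -166, -160, -102 and -83, the first of them on the other strand, and no CACGTG. Neither motif was thus shared by the pair. *Oxtr* had a CACGTG at -43 and a TGACC at -97, *Cd38* had 2 TGACC, and *Avpr1a* had neither. Of 32851 promoters of this length, 6.02% held CACGTG and 35.2% held TGACC. A match of letters is a description and not a binding site.

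*Avp* and *Oxt* had a Pearson's r of 0.84 over the 8 mice (Spearman's rho 0.81), the highest of the 10 pairs. The exact permutation p, over 40320 pairings, was 0.0088, and 0.0852 after adjustment over the 10 pairs. With the means of the groups removed r was 0.88. Without MS 7.1 and MS 7.6, the mice farthest from the median of *Avp*, it was 0.46, so that much of the relation lay in this pair of mice. With MS 7.1 alone left out r was 0.66.

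*Oxtr* and *Cd38* had an r of 0.78 (rho 0.71, exact permutation p = 0.0248, adjusted p = 0.0852), which was 0.79 without MS 7.1 and MS 5.3. *Avp* and *Oxtr* had an r of -0.76 (rho -0.69, exact permutation p = 0.0256, adjusted p = 0.0852), which was -0.55 without MS 7.1 and MS 7.6. MS 7.1, with the highest *Avp* and *Oxt*, had the lowest *Oxtr*. MS 7.6, with the lowest *Avp* and *Oxt*, had the highest *Cd38*. MS 5.3 went the other way, with the second-highest *Oxt* and the highest *Oxtr* of all mice. MS 7.6 was also the mouse of the dimmest array, with a 75th percentile of 567 against 853 to 1018 on the other 7 arrays and the fewest probes above background (34086).

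For the other pairs without *Avpr1a*, r was -0.66 for *Avp* and *Cd38*, -0.63 for *Oxt* and *Cd38* and -0.55 for *Oxt* and *Oxtr*, with exact permutation p of 0.0733, 0.0953 and 0.156 and adjusted p of 0.183, 0.191 and 0.261. Without MS 7.1 and MS 5.3 the values of *Oxt* were -0.88 with *Cd38* and -0.93 with *Oxtr*, while without MS 7.1 alone *Oxt* and *Oxtr* had -0.25. Without MS 7.6, *Avp* and *Cd38* had -0.46. The 4 pairs with *Avpr1a* had an r between -0.14 and 0.13, of adjusted p 0.914 to 0.957. Of the 10 pairs, 0 passed at an adjusted p under 0.05 by r or by rho, and 3 had an unadjusted p under 0.05 by r. Each row of the slide held 4 mice, too few for a correlation of its own.

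Removing the mean of each row gave 0.87 for *Avp* and *Oxt*, -0.83 for *Avp* and *Cd38* and 0.97 for *Oxtr* and *Cd38*, all at an adjusted p under 0.05, and -0.75 for *Avp* and *Oxtr*. These calls with row means removed are a description only, since the permutation paired mice of both rows freely and its p can be too small. Leaving out MS 5.3 also gave 3 calls, *Avp* with *Oxt* at 0.91, *Avp* with *Oxtr* at -0.86 and *Oxt* with *Oxtr* at -0.90.

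**Figure D4:**
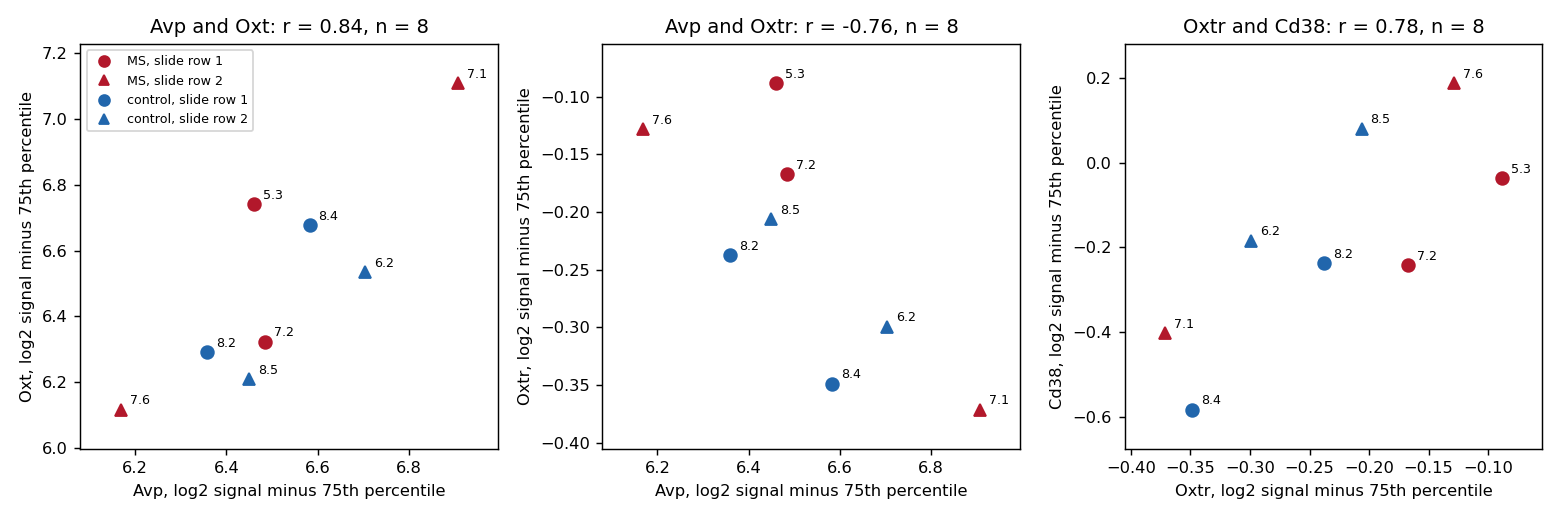
Each point is 1 mouse, numbered as in its label (red, MS; blue, control; the shape gives the row of the slide), with log2 signals minus the 75th percentile of the array on both axes. *Oxt* was higher in mice with more *Avp* (r = 0.84), *Oxtr* was lower in them (r = -0.76), and *Cd38* was higher in mice with more *Oxtr* (r = 0.78), with MS 7.1 and MS 7.6 at opposite ends of the *Avp* axis.

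Other genes of these arrays also reached correlations of this size with the members. Of 17315 other named genes, an absolute r at least as large as that of *Oxt* was reached with *Avp* by 0.907%, and *Oxt* ranked 84 from the highest. From the side of *Oxt*, *Avp* ranked 43, where 0.468% reached its absolute r. *Cd38* ranked 294 among the genes by their r with *Oxtr*, where 3.53% reached its absolute r, and *Oxtr* ranked 361 with *Cd38*, where 4.9% did.

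The probes differ in base composition, with 73.3% G and C for *Avp*, 58.3% for *Oxt*, 41.7% for *Avpr1a*, 38.3% for *Oxtr* and 45.0% for *Cd38*. Removing from each array the median deviation of probes with the same content, a setting added after the data were seen, left r at 0.81 for *Avp* and *Oxt*, -0.74 for *Avp* and *Oxtr* and 0.86 for *Oxtr* and *Cd38*, and the fold changes of all 5 genes kept their sign. The log2 fold change of *Avp* went from -0.02 to -0.09, and the exact permutation p of *Avp* and *Oxt* was 0.0195 (adjusted p = 0.0873). Only 29 probes had the content of the *Avp* probe and 99 that of the *Oxt* probe.

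The marker lists of neighboring tissue and the brightness of the array were set beside each gene, in 30 relations chosen after the values were seen. Over all 8 mice, *Avp* and *Oxt* had an absolute r of at most 0.54 with the HT, suprachiasmatic, pituitary, thalamus and striatum markers and the 75th percentile. Without control 8.4 and control 8.2, r with the striatum markers was -0.69 for *Avp* and -0.70 for *Oxt*. With the suprachiasmatic markers it was then 0.60 for *Avp* and 0.42 for *Oxt*. Without MS 7.2 and MS 5.3, r with the HT markers was 0.52 for *Avp* and 0.61 for *Oxt*. *Oxtr* had an r of -0.79 with the mean of the HT markers (rho -0.83, exact permutation p = 0.021, adjusted p = 0.315), and -0.81 without MS 7.2 and MS 5.3, the mice with the lowest HT marker means. *Cd38* had an r of -0.80 with the mean of 8 suprachiasmatic markers (rho -0.88, exact permutation p = 0.018, adjusted p = 0.315), and -0.85 without control 8.4 and control 8.2. Of these markers *Vip* spread the most, from -3.84 in control 8.5 to 0.80 in control 8.4, and so weighed most in the mean. *Syt10* went otherwise, with its highest value, 4.72, in control 8.5. With the 75th percentile of the array, *Cd38* had an r of -0.64 and a rho of -0.79 (exact permutation p = 0.0817 and 0.0279, adjusted p = 0.745 and 0.276), and its r was -0.49 without MS 7.6 and MS 7.2. The value of each gene has this percentile subtracted, so that such an r is not independent of the scaling. For the other genes r with the percentile was 0.54 (*Avp*), 0.41 (*Oxt*), 0.0099 (*Avpr1a*) and -0.32 (*Oxtr*). The part of the scaling in these values was not tested. Before scaling, the *Cd38* intensity of MS 7.6 was 646, in a range of 613 to 902.5 over the 8 mice. With the pituitary markers *Cd38* had an r of 0.27 and a rho of 0.76 (exact permutation p = 0.522 and 0.0368, adjusted p = 0.898 and 0.276), and an r of 0.79 without control 6.2. With the HT markers its r was -0.40, and -0.94 without MS 7.2 and MS 5.3. Of the 30 relations, 0 passed after adjustment. The part of dissection and of array brightness in the variation of *Oxtr* and *Cd38*, and so in their relations with *Avp* and *Oxt*, was not tested.

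The genes most like each member were taken by Pearson's r over the 8 mice, as a description. For *Avp* they were *Tspear*, *Ptgr2*, *Pla2g2d*, *Tbc1d10c* and *Ltk*, with r of 0.94 to 0.98, and the lowest r with 1 mouse left out was 0.88. For *Oxt* they were *Dgat1*, which makes triglycerides, *Scmh1*, *Gpc4*, *Atp8a2* and *Kifc3*, with r of 0.92 to 0.95. For *Oxtr* they were *Smad4*, *Atp7a* and *Stx7* (0.95 to 0.97), and for *Cd38* *Mfsd14a*, *Tusc3* and *Bbx* (0.97 to 0.98). For *Avpr1a* they were *Gnmt*, *Atp10d* and *Gm6713* (0.95 to 0.97), whose r was 0.40 to 0.69 without control 6.2. A likeness over 8 mice was easily had, since 2.24% to 9.92% of 17311 genes reached an absolute r of 0.7 with a given member.

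Other genes of the pathway were read from 6 lists with 55 genes, of which 52 were tested and 0 were called. *Avpr1b*, *Avpr2* and *Bst1* were well above background on at most 3 arrays and were not tested, and *Avpr2*, the receptor of the kidney, was so on 0 arrays. An unadjusted p under 0.05 was found for 3 of the 52 (*Vgf*, *Sst* and *Agtr1a*), against 3.3% of all probes. The groups did not overlap for these 3 and for *Rgs2*, a regulator of Gq signals (log2 fold change 0.08, SE 0.05), which made 4 of the 52 (7.69%), against 2.03% of all probes. The lists were chosen with earlier results of these data known, and each gene was read from its brightest probe. These shares are therefore a description only. The values of the 52 were below 0 in 34 and above 0 in 18, and their median was -0.02 on the log2 scale, beside 0.01 over all named genes. Some marker lists of other cells leaned to 1 side in these samples, although 0 of their genes passed the test. All 7 astrocyte markers averaged higher in MS mice, and their mean level was 3.68 to 3.77 in MS mice and 3.57 to 3.66 in control mice, with no overlap. The nearest mice were MS 7.2 at 3.68 and control 6.2 at 3.66, and of the 7 markers only *Aqp4* had an unadjusted p under 0.05 (limma). All 7 striatum markers averaged lower in MS mice, with a mean level of -0.54 to -0.43 in MS mice and -0.47 to -0.29 in control mice. The striatum means overlapped between groups. So did those of the neuron, oligodendrocyte, microglia, endothelium and blood, thalamus, and cortex, hippocampus and amygdala lists. The HT, suprachiasmatic and pituitary means overlapped too, so that only the astrocyte list did not. The part of other cells in the values of the pathway genes was not tested.

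Of 9 tested genes of receptors and signaling, 4 were above 0 and 5 below (median -0.02). The smallest p in each direction belonged to *Rgs4*, which shortens Gq signals, with 0.13 (SE 0.07), and to *Prkca*, a protein kinase C, with -0.08 (SE 0.06). Of 10 tested genes of CD38 partners, calcium release and secretion, 4 were above 0 and 6 below (median -0.01). *Ryr3*, a channel that releases calcium in answer to cyclic ADP-ribose, had 0.09 (SE 0.06).

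*Vgf*, a granule protein of neurons that secrete peptides, had the smallest p of the list. Its signal was 5.90, 5.80, 5.80 and 6.07 in MS mice 5.3, 7.1, 7.2 and 7.6, against 6.25, 6.12, 6.18 and 6.32 in control mice 6.2, 8.2, 8.4 and 8.5. All 4 MS mice lay below all 4 control mice. The log2 fold change was -0.33 (SE 0.08, unadjusted p = 0.0033, adjusted p = 0.981, limma), so it did not pass the test.

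Of 6 genes of precursor processing and peptide breakdown, 2 were above 0 and 4 below (median -0.01), with *Cpe*, the carboxypeptidase of secretory granules, at 0.08 (SE 0.06) and *Lnpep*, the aminopeptidase that breaks down oxytocin and vasopressin, at -0.14 (SE 0.06). Of 11 transcription factors and regulators of these neurons, 5 were above 0 and 6 below (median -0.005), with *Sim2* at 0.15 (SE 0.08) and the imprinted *Peg3* at -0.15 (SE 0.09). All 4 of these genes had an adjusted p of 0.981 (limma).

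Of 9 peptides made by the same or neighboring neurons, 1 was above 0 and 8 were below (median -0.10). The gene above 0 was *Pdyn*, the dynorphin precursor of vasopressin neurons, with 0.04 (SE 0.10). *Sst*, the gene of somatostatin, had 5.23, 5.12, 5.02 and 5.10 in MS mice 5.3, 7.1, 7.2 and 7.6, against 5.40, 5.24, 5.33 and 5.34 in control mice 6.2, 8.2, 8.4 and 8.5. The MS mice lay below the control mice, with MS 5.3 only just under control 8.2. Its log2 fold change was -0.21 (SE 0.06, unadjusted p = 0.0125, adjusted p = 0.981, limma).

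The lowest value of the peptide list was that of *Trh*, the thyrotropin-releasing hormone gene, named after its value was seen. It had 3.33, 4.71, 3.32 and 3.85 in MS mice 5.3, 7.1, 7.2 and 7.6, against 4.41, 4.49, 4.54 and 4.20 in control mice 6.2, 8.2, 8.4 and 8.5. MS 7.1 was the highest of all mice and the other MS mice were the lowest, so that the groups overlapped (log2 fold change -0.61, SE 0.29, adjusted p = 0.981, limma). MS 5.3 and MS 7.2, the mice with the least *Trh*, were also the lowest for *Hcrt* and *Pmch*, but not for all HT markers. *Hcrt*, the orexin precursor gene of the lateral HT, was at 3.29 and 3.36 in them, against 5.33 to 6.47 in the other 6 mice. *Pmch*, the gene of melanin-concentrating hormone, was at 5.85 and 5.79, against 5.97 to 6.58. *Nkx2-1*, another HT marker, went the other way, at 0.91 and 0.68 against 0.43 to 0.61. The HT marker means of MS 5.3 and MS 7.2, 1.54 and 1.52, were the lowest, but these means include *Trh*, *Hcrt* and *Pmch*. The part of dissection in the *Trh* values was not tested.

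Of 7 genes of osmotic sensing and neuron volume, 2 were above 0 and 5 below (median -0.04). *Trpv1*, a channel of osmosensitive neurons whose probe was dim, had 0.38 (SE 0.29), but 0.15 without control 8.5, 0.23 without MS 7.2, 0.21 in slide row 1, 0.17 with normexp and 0.14 in the table of the authors. *Agtr1a*, the angiotensin receptor through which thirst and vasopressin release are raised, had -2.19, -2.03, -2.18 and -2.02 in MS mice 5.3, 7.1, 7.2 and 7.6, against -1.65, -1.99, -1.89 and -1.69 in control mice 6.2, 8.2, 8.4 and 8.5. All MS mice lay below the control mice, with MS 7.6 only just under control 8.2 (log2 fold change -0.30, SE 0.09, unadjusted p = 0.0118, adjusted p = 0.981, limma).

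**Figure D5:**
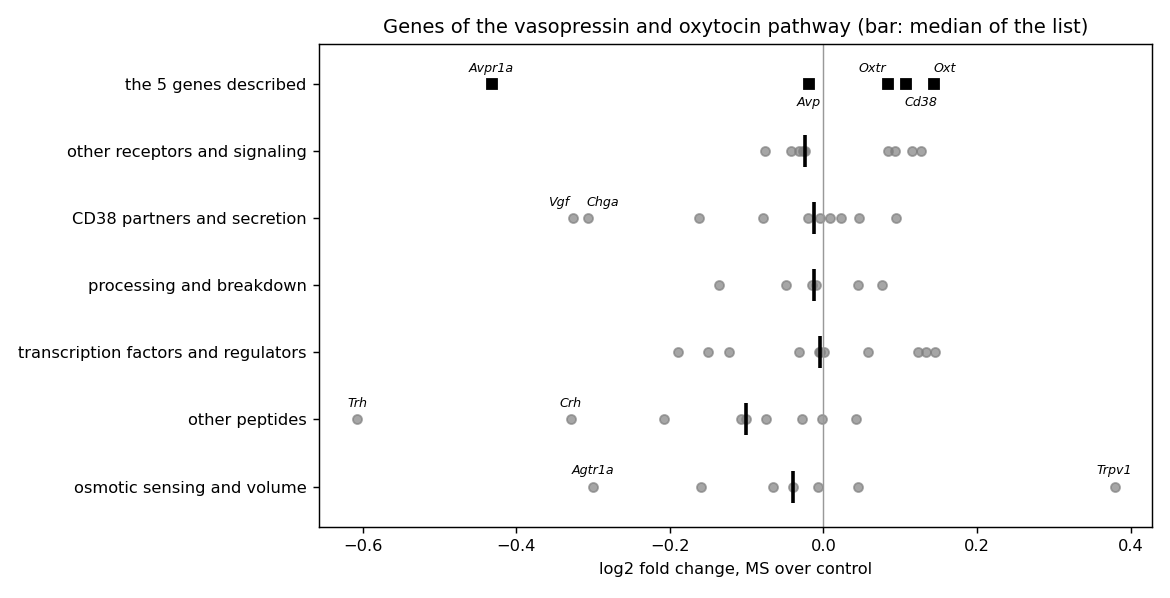
Log2 fold changes of MS over control mice are on the x axis, with the 5 genes as squares in the top row and the tested genes of 6 pathway lists as circles below, 1 circle per gene and a bar at the median of each list. The medians lie between -0.10 and -0.005, *Trh* is the lowest at -0.61 and *Trpv1* the highest at 0.38 (0.15 without control 8.5), and 0 of the genes passed the test.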

How the data were processed

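RNA of the HT of 8 mice (200 ng each) was hybridized to 1-color arrays; other brain regions were not analysed here. Per the file headers, the deposited scanner output comes from Agilent Feature Extraction 10.10.1.1, which subtracted the background and gradients from each processed intensity. A second deposited file holds log2 values by the authors, for which the submitters' processing notes name limma. Their normalization is not stated in the paper or the labels, and they served as an alternative. Probe positions in the headers are mm9, and the array design there is not the one that the methods name.

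In R 4.3.3, control and outlier spots were dropped. The log2 signals of replicate spots were averaged, and each array was set relative to its 75th percentile. Probes above background on 4 or more of the 8 arrays were compared with lmFit and eBayes of limma 3.58.1 (two-sided, Benjamini-Hochberg, 0.05). The methods name lmFit and this adjustment, while eBayes and the filter were chosen here. Input was read with the R package data.table (version 1.17.8). Single values and correlations were tested by exact permutation. The code of the fit was tried on simulated data and that of the permutations on values with known answers. RefSeq accessions named 27235 probes, symbols 3581 and older symbols 565, and 24300 stayed unnamed. The brightest probe stood for a gene.

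The members and lists were chosen with earlier results of these data known. Named genes are the 5 members, in each pathway list the smallest p above and below 0, and the 5 (*Avp*, *Oxt*) or 3 genes with the highest r. Alternatives were other scalings (quantile, median), normexp with an offset of 50, the log2 values of the authors, other filters, a block for slide row or for the first part of the label numbers, another variance model, each slide row alone and each mouse left out. The GC setting, *Oxt* minus *Avp* and the 30 relations with marker lists were added after the data were seen.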

Additional observations from a re-analysis of the deposited data

How the results depend on the processing

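No call of the 5 genes changed under any alternative, with adjusted p of 0.671 or more (limma). The count of probes called was 0 except for 1 with the first part of the label numbers as a random block and 1 in slide row 2 alone. With that random block the consensus correlation was -0.20, a negative value, which makes standard errors smaller (for *Avp* 0.12, against 0.15 in the setting reported). The probes with an unadjusted p under 0.05 (limma) then numbered 3467, against 1232, so its p can be too small. Among values near 0, the sign of *Avp* turned with that random block (0.0060) and in slide row 1 (0.0017), that of *Cd38* in slide row 2 (-0.056) and that of *Pdyn* in slide row 2 (-0.012). With 1 mouse left out, the log2 fold change was -0.15 to 0.093 for *Avp*, -0.035 to 0.30 for *Oxt*, -0.67 to -0.021 for *Avpr1a*, 0.051 to 0.14 for *Oxtr*, -0.0096 to 0.21 for *Cd38* and -0.026 to 0.095 for *Pdyn*. Within these ranges, *Avp* was also above 0 without control 6.2 (0.041) and without control 8.4 (0.00087), and *Pdyn* below 0 without control 8.4 (-0.0076). The other 11 pathway genes taken by smallest p kept their sign in every alternative that gave a value, with *Trpv1* at 0.14 to 0.55. Pairs of genes called numbered 0 of 10 in the setting reported, 2 with normexp, 1 with group means removed, 3 with slide row means removed and 0 to 3 with 1 mouse left out. For *Avp* and *Oxt*, r passed at 0.87 with normexp, 0.88 with group means removed and 0.87 with row means removed, and was 0.66 to 0.91 with 1 mouse left out. The calls with group or row means removed are a description only, since the permutation paired all mice freely and its p can be too small. The r of *Avpr1a* changed sign with *Cd38* under normexp (0.024) and with group means removed (0.069), and with *Oxtr* with group means removed (0.023). With 1 mouse left out it was -0.62 to 0.56 with *Avp*, -0.45 to 0.22 with *Oxt*, -0.42 to 0.34 with *Oxtr* and -0.17 to 0.13 with *Cd38* (0.0070 without MS 5.3 and 0.0076 without MS 7.6). *Oxt* minus *Avp* stayed above 0 in its 15 alternatives, at 0.05 to 0.28. The causes were not tested. Background limited *Avpr1b*, *Avpr2* and *Bst1*, which were not tested, but none of the 5 genes. No paired analysis was possible because the groups share no numbers in the labels.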
